A study of Mus musculus with 60 samples.

Results

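The comparison described here is the effect of a Western diet on visceral fat of mice that carried a doxycycline-induced NaKtide transgene. Its members were the 5 visceral fat libraries labelled Western diet with NaKtide (called Western-NaKtide below) and the 5 labelled control diet with NaKtide (control-NaKtide), 10 of the 60 libraries of the series, chosen by their labels. Each library was taken as 1 mouse by its replicate number, which the labels do not state, and some libraries were very alike (below). All 10 mice had the NaKtide transgene induced by chow with 300 mg/kg doxycycline, and they ate their diet for 12 weeks. The control chow was 62% carbohydrate, 27.0% protein and 11% fat, and the Western diet 15.2% protein, 42% fat and 42.7% carbohydrate. The 10 visceral libraries of mice without NaKtide, 5 on the Western diet (Western) and 5 on the control diet (control), entered the fit for the spread and as the contrast for the diet effect. Strain, age, sex and the promoter that drives the transgene were not given in the sources used here, nor was whether the mice without NaKtide ate doxycycline.

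Visceral white fat stores triglyceride in adipocytes and secretes adipokines such as leptin and adiponectin. In obese mice it fills with macrophages, among them lipid-associated macrophages that take up and digest adipocyte lipid and are marked by Trem2 and Itgax. NaKtide copies a stretch of the Na,K-ATPase, the sodium pump, and keeps Src kinase off the pump, which blocks a signalling loop by which pump and kinase amplify oxidants.

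The labels of these 10 libraries need care before any direction is read. In the mice without NaKtide, the summed level of 20 macrophage and monocyte genes was 2221 to 5412 CPM (counts scaled to the library size) in the Western libraries and 293 to 1104 CPM in the control libraries. Under NaKtide the order was the other way round, with 597 to 1912 CPM in the Western-NaKtide libraries and 2728 to 4364 CPM in the control-NaKtide libraries. All 20 genes were detected in every group, and in both pairs of groups the ranges did not overlap. Of 4287 genes called for diet without NaKtide (24.9% of those tested), 238 (5.55%) had the same sign of diet difference under NaKtide. Of the 618 genes called in both contrasts, which share no library but come from 1 fit, all 618 had opposite signs. Western-NaKtide 5 and control 4, from different contrasts, were very alike in their counts (below). Western-NaKtide 2, 3 and 5 and control 3, 4 and 5 also held over 1000 CPM of epididymis and testis genes. What these libraries add to the opposite signs was not tested, and a fit without them is given with the interaction. In the other tissues of the series the same share was 75.1% (824 of 1097 genes) in liver and 82.9% (708 of 854) in subcutaneous fat. Of 434 genes called in both contrasts in liver, 36 had opposite signs. No gene was called under NaKtide in subcutaneous fat, so its share rests on signs alone. Whether the diet labels of the NaKtide visceral libraries are exchanged was not tested, and every direction below is one between libraries as labelled.

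**Figure D1:**
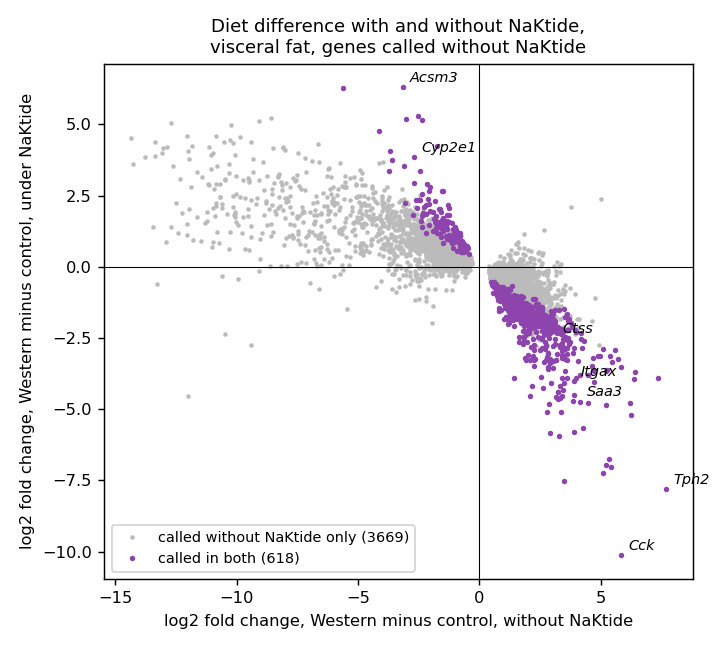
Log2 fold change for diet without NaKtide (x axis) and under NaKtide (y axis) for the 4287 genes called for diet without NaKtide in visceral fat, each point 1 gene, with the 618 genes called in both contrasts in purple. The purple points lie in the upper left and lower right quadrants, and Cck, Tph2, Itgax and Saa3 are high on the x axis and low on the y axis.

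RNA of epididymis and testis genes, organs that lie against the gonadal fat pad, was in several libraries. Summed epididymis and testis marker genes reached 71030 CPM in Western-NaKtide 5 and 13845 CPM in control-NaKtide 1, the pair of libraries for which a check was planned. Western-NaKtide 2 (5025 CPM) and Western-NaKtide 3 (1497 CPM) also stood above 1000 CPM, while the other 6 libraries held 5.46 to 417 CPM. Western-NaKtide 5 was also close to a library of another group. The chi-square of its counts against those of control 4, without NaKtide, was 3.23 per degree of freedom, where 1 is sampling noise, which made them the second closest of the 190 pairs of visceral libraries. Its nearest library of its own group, Western-NaKtide 2, was at 129.6. The closest pair of all, Western 4 and Western 5 without NaKtide, was at 3.00. Whether either pair holds RNA of the same mouse was not tested. The fit of 8 libraries holds neither Western-NaKtide 5 nor control 4, while the fit of all 10 and the interaction hold both. Library totals were 4187968 to 7814326 counts. The 12 adipocyte markers were all detected, with sums of 16442 to 50013 CPM in the Western-NaKtide and 15220 to 28454 CPM in the control-NaKtide libraries.

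**Figure D2:**
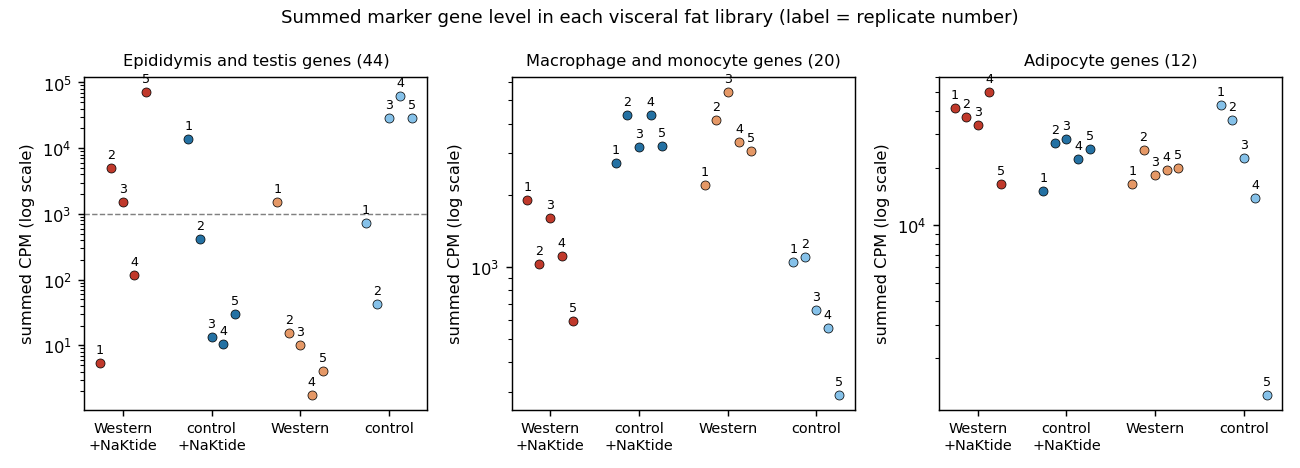
Summed CPM of epididymis and testis genes, macrophage and monocyte genes and adipocyte genes in each visceral fat library on log axes, each point 1 library with its replicate number, the dashed line at 1000 CPM. Western-NaKtide 2, 3 and 5, control-NaKtide 1, Western 1 and control 3, 4 and 5 lie above the line, and the macrophage sums of the NaKtide groups are the reverse of those without NaKtide.

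With all 10 libraries, in a fit of the 20 visceral libraries, 830 of 17235 genes (4.82%) passed an adjusted p of 0.05 in edgeR's quasi-likelihood test. The Western-NaKtide libraries were higher for 228 genes (1.32%) and lower for 602 (3.49%), and 3117 genes had an unadjusted p under 0.05. Without Western-NaKtide 5 and control-NaKtide 1, the 8 libraries of the 2 groups gave 2903 called genes of 14975 (19.4%), 1276 higher (8.52%) and 1627 lower (10.9%). The fit of 8 libraries also leaves out the mice without NaKtide. Leaving only those 2 libraries out of the 20-library fit gave 823 genes, and fitting the 2 groups alone with all 10 libraries gave 1181. Of the 830 genes, 806 were tested with 8 libraries, and 798 of these were called there, all in the same direction. The 2 groups' libraries did not overlap for 1411 genes (8.19%) with all 10 and for 3788 (25.3%) with 8. The biological coefficient of variation, the spread between mice beyond counting, was 0.675 in the 20-library fit and 0.252 with 8 libraries. Leaving out 1 library of the 10 lowered the count more than 1.5 times for control-NaKtide 2 (389 genes), 3 (542), 4 (423) and 5 (473) and Western-NaKtide 2 (410) and 4 (496). With 8 libraries, the counts without control-NaKtide 2, 4 and 5 were 1906, 1825 and 1824 genes. A gene described below as called in both fits kept its call with each of the 10 and each of the 8 libraries left out, and one described with 8 libraries only kept it with each of those 8 left out, unless a library is named. Several genes given with 8 libraries only, among them Col6a1, Mest and Sod1, were also called with all 10, a call lost when any 1 of several libraries was left out.

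The largest falls by the naming rule were in Cck, Tph2 and Gpr50. Cck encodes cholecystokinin, a gut and brain peptide hormone. It was at 0, 0.149, 0, 0.236 and 0 CPM in Western-NaKtide 1 to 5 and at 64.9, 122, 98.9, 107 and 80.8 CPM in control-NaKtide 1 to 5. The Western-NaKtide libraries held 2 Cck counts in all and the control-NaKtide libraries 3576, so that the level was 1547 times lower, with a 95% interval for counting error of 428 to 12779. The groups did not overlap, which the naming rule required, and the log2 fold change of -10.13 ± 0.52 (SE) had an edgeR adjusted p of 2.3e-09.

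Tph2 encodes the neuronal tryptophan hydroxylase, which catalyses the first step of serotonin synthesis. Its level was 0.520, 0.746, 0.642, 0.472 and 0.307 CPM in Western-NaKtide 1 to 5 and 71.7, 146, 141, 149 and 118 CPM in control-NaKtide 1 to 5. The groups were far apart, with a log2 fold change of -7.80 ± 0.54 (edgeR adjusted p = 1.7e-07). Both genes were also high in the Western libraries without NaKtide, where Tph2 ran from 10.3 to 71.9 CPM and Cck from 6.02 to 9.52 CPM, against at most 0.407 and 0.204 CPM in the control libraries. Per length, Cck stood at 57.0 ± 11.5 FPKM (a level per transcript length, SD, n = 5) and Tph2 at 34.1 ± 7.48 FPKM in the control-NaKtide libraries.

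Further genes with large falls are known from several kinds of tissue and were lower in both fits. Which cells their RNA came from was not tested. Gpr50, an orphan relative of the melatonin receptors, had 6 counts in all 5 Western-NaKtide libraries and 1487 in the control-NaKtide libraries (log2 fold change -7.51 ± 1.24). Slc5a7, the choline transporter of cholinergic neurons, fell by 4.77 on the log2 scale, and Otop1, a proton channel, fell by 4.48. Tfr2, the second transferrin receptor, fell by 4.33, from 36.2 to 105 CPM in the control-NaKtide to 1.19 to 6.45 CPM in the Western-NaKtide libraries. Trdn, a calcium release protein of muscle, was 36.8 times lower. Cela1, a pancreatic elastase with a smaller difference, was 33.1 to 36.7 CPM in the Western-NaKtide libraries and 82.2 to 153 CPM in the control-NaKtide libraries, without overlap, and it was the only pancreas marker of 10 with enough counts to be tested.

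Many macrophage and monocyte genes were lower in the Western-NaKtide libraries. Of the 20 macrophage and monocyte genes, 11 were called lower and none higher with all 10 libraries, against 3.49% of all genes called lower. With 8 libraries 15 were lower and 2 higher, against 10.9% and 8.52% of all genes. Their median log2 fold change was -1.59 and -1.42 in the 2 fits, beside 0.04 and 0.05 over all genes tested. Of the resident macrophage markers none of 9 was called with all 10 libraries, and of 8 tested with 8 libraries 1 was higher and 1 lower. Their sums overlapped, at 58.9 to 297 CPM in the Western-NaKtide and 139 to 381 CPM in the control-NaKtide libraries. In bulk tissue fewer cells of a type and less RNA per cell cannot be told apart.

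A few of these genes hold a short AP-1 or PU.1 promoter motif, and windows of Itgax, Cd68 and Mmp12 are shown here. Whether the motifs have a part in the lower levels was not tested. The sequences are the 250 bases before the RefSeq start (GRCm38.p6), 5′ to 3′ on the gene's strand, with the match in capitals. Itgax lies at chr7:128129300-128129549 (+ strand), Cd68 at chr11:69666171-69666420 (- strand) and Mmp12 at chr9:7344147-7344396 (+ strand). In Itgax and Cd68 the capitals mark TGAGTCA, the AP-1 motif (TGACTCA on the other strand), starting at position -56 in Itgax and found 2 times in Cd68. In Mmp12 they mark ACTTCCTC, the PU.1 motif (GAGGAAGT on the other strand), starting at position -88.
Itgax: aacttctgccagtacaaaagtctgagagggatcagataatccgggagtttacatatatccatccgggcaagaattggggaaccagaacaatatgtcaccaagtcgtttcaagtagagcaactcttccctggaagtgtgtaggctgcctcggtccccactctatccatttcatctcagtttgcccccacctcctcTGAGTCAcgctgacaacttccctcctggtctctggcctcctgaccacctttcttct
Cd68: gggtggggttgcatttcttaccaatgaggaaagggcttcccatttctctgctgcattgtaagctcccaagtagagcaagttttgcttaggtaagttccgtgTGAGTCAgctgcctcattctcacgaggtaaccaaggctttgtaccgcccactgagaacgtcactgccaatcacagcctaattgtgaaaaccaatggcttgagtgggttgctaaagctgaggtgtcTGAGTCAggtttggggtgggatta
Mmp12: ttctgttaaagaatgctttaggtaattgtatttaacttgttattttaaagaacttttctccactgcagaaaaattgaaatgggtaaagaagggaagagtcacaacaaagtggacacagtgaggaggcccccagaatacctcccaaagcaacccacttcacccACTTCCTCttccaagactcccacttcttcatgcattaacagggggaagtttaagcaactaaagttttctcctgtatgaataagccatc
Searched on both strands, the AP-1 motif was in 4.46% of all 32851 RefSeq windows of this length and the PU.1 motif in 2.44%. Of the 23 macrophage, monocyte and lipid-associated macrophage genes lower with 8 libraries, 18 had a RefSeq entry, with 23 windows in all. The AP-1 motif was in 3 of these 23 windows (Cd68, Itgax and a window of another Mmp12 start, not the one printed) and the PU.1 motif in 2 (Mmp12 and Spp1). The motifs were picked after the matches had been looked at, and a match is no evidence of binding.

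Itgax, the integrin CD11c, was 4.16, 2.39, 8.86, 2.60 and 2.15 CPM in Western-NaKtide 1 to 5 and 45.2, 77.7, 55.5, 99.4 and 46.0 CPM in control-NaKtide 1 to 5. The groups were far apart, at a log2 fold change of -4.01 ± 0.57 (edgeR adjusted p = 0.00092). Cd68, a lysosomal glycoprotein of macrophages, was 95.8, 24.9, 46.9, 20.3 and 29.2 CPM against 148, 235, 149, 244 and 155 CPM (-2.13 ± 0.43, edgeR adjusted p = 0.0081). Western-NaKtide 1 was the highest of its group and still below every control-NaKtide library. Mmp12, the macrophage elastase, was 23.9, 2.09, 14.8, 4.25 and 2.15 CPM against 82.9, 149, 122, 140.0 and 93.4 CPM (-3.64 ± 0.77, edgeR adjusted p = 0.0098).

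Of the 15 lipid-associated macrophage genes, 6 were lower and none higher with all 10 libraries, against 3.49% of all genes called lower. With 8 libraries 10 were lower and 1 higher, against 10.9% and 8.52% of all genes. Their median log2 fold change was -1.18 with all 10 libraries and -1.64 with 8. The sums of these 15 genes overlapped, at 7202 to 15808 CPM in the Western-NaKtide and 8255 to 14616 CPM in the control-NaKtide libraries. Trem2, the lipid receptor that marks these cells, was 26.1, 10.7, 11.0, 7.56 and 18.1 CPM against 119, 199.7, 108, 159 and 106 CPM (-3.26 ± 0.44, edgeR adjusted p = 0.00054). Gpnmb, a lysosomal glycoprotein of lipid-laden macrophages, was 100.1, 9.25, 17.2, 15.8 and 47.6 CPM against 235, 378, 261, 524 and 229 CPM. The groups did not overlap for either gene. Spp1, osteopontin, fell by 3.22 with 8 libraries (edgeR adjusted p = 0.011), where its adjusted p with all 10 was 0.098. Atp6v0d2, a proton pump subunit that the epididymis expresses too, fell by 3.30 with 8 libraries and was 93.0 CPM in Western-NaKtide 5, against 1.42 to 13.7 CPM in the other Western-NaKtide libraries. With that library its log2 fold change was -1.17 (edgeR adjusted p = 0.62).

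Irf8, a transcription factor of myeloid cells, fell by 2.53 with little spread (SE 0.24, edgeR adjusted p = 1.7e-05), from 58.6 to 127 CPM to 9.25 to 19.6 CPM. Mpeg1, a pore-forming protein of macrophages, fell by 2.38 and Lgals3, galectin-3, fell by 2.13. Clec7a, the beta-glucan receptor, fell by 2.19. A pair of list members went the other way with 8 libraries. Ly6c2, a marker of inflammatory monocytes, was 50.1 to 79.6 CPM in Western-NaKtide 1 to 4 and 23.4 to 36.9 CPM in control-NaKtide 2 to 5 (0.98 ± 0.20, edgeR adjusted p = 0.0075). Cd163, the haemoglobin scavenger receptor of resident macrophages, rose by 0.87 with 8 libraries (edgeR adjusted p = 0.022), a call that was lost without control-NaKtide 2, 3, 4 or 5 or Western-NaKtide 1 (highest adjusted p 0.081).

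NADPH oxidase subunits, which make superoxide in phagocytes, followed the same pattern. Of 13 genes on the list 8 were tested. With all 10 libraries 6 were called lower and with 8 libraries 7, none higher (median log2 fold change -1.45 and -1.55). Over all genes 3.49% and 10.9% were called lower. Ncf1, the cytosolic organiser p47phox, was 15.1, 14.2, 17.7, 9.92 and 11.4 CPM in Western-NaKtide 1 to 5 and 26.0, 38.6, 30.7, 47.1 and 31.7 CPM in control-NaKtide 1 to 5 (-1.38 ± 0.27, edgeR adjusted p = 0.0068). Rac2, the GTPase of the phagocyte oxidase, was 10.3 to 22.2 CPM against 31.9 to 55.6 CPM. Neither gene's groups overlapped. With 8 libraries Cybb, the catalytic subunit NOX2, fell by 1.79 and its partner Cyba fell by 1.32, while Ncf4, p40phox, fell by 1.80. The macrophage marker sums above moved with these genes, and their part in the result was not tested.

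Src itself, the kinase that NaKtide keeps from the pump, was 13.5, 21.0, 19.9, 21.0 and 25.8 CPM in Western-NaKtide 1 to 5 and 24.9, 25.7, 28.4, 25.7 and 22.1 CPM in control-NaKtide 1 to 5. The groups overlapped with all 10 libraries and did not overlap with 8, and the difference was called in neither fit (-0.37 ± 0.19, edgeR adjusted p = 0.32 with 10 libraries and 0.11 with 8). Of 12 genes of the Src family and its regulators, 3 were called lower with all 10 libraries, and 4 of 11 with 8. Over all genes 3.49% and 10.9% were called lower. Fgr, a kinase of myeloid cells, fell by 1.82, while with 8 libraries Lyn fell by 1.11 and Csk, the inhibitory kinase of the family, fell by 0.98.

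Of 12 subunits and regulators of the pump tested, 1 was called lower with all 10 libraries, against 3.49% of all genes. With 8 libraries 3 of 11 were lower and 1 higher, against 10.9% and 8.52% of all genes, so that the number higher was near that share. Fxyd5, a regulator of the pump, fell by 0.91 with 8 libraries (edgeR adjusted p = 0.0031).

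Chemokines, acute phase genes and antigen presentation were lower as well. Over all genes 3.49% were called lower with all 10 libraries and 10.9% with 8, where 8.52% were higher. Of 26 chemokines and receptors 6 were called lower with all 10 libraries and 12 of 24 with 8, where 1 was higher. Ccl7, which draws monocytes into tissue, was 6.63, 1.94, 7.06, 1.18 and 1.84 CPM against 16.9, 35.2, 32.2, 27.7 and 53.7 CPM, without overlap (-3.13 ± 0.60, edgeR adjusted p = 0.006). Ccl2, its close relative, fell by 2.80 with 8 libraries, and its receptor Ccr2 fell by 1.63. Of the cytokine and acute phase genes 4 of 16 were lower with all 10 libraries and 9 of 14 with 8, none higher. Tnf and Il6 had too few counts to be tested.

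Saa3, an acute phase protein made by inflamed fat, was 1.82, 17.9, 5.39, 4.72 and 6.14 CPM in Western-NaKtide 1 to 5 and 141, 249, 214, 196 and 133 CPM in control-NaKtide 1 to 5. No library came near the other group (-4.74 ± 0.52, edgeR adjusted p = 0.0001). Ubd, a ubiquitin-like protein induced by inflammatory cytokines, fell by 4.87, from 123 to 243 CPM to 2.46 to 13.9 CPM. S100a8, a calcium-binding protein of neutrophils and monocytes, fell by 4.58. Atf3, a stress-induced transcription factor, fell by 2.74. With 8 libraries Socs3, the feedback inhibitor of cytokine receptors, fell by 1.66 and Lif, a cytokine of the interleukin-6 family, fell by 2.17.

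Of 9 tested genes of MHC class II presentation, 2 were lower with all 10 libraries and 8 with 8 libraries (median log2 fold change -1.08 and -0.87). Over all genes 3.49% and 10.9% were called lower. Ctss, the cathepsin that trims the invariant chain, was 79.8, 28.3, 55.5, 18.7 and 37.8 CPM against 165, 306, 231, 319 and 224 CPM (-2.53 ± 0.40, edgeR adjusted p = 0.0015). H2-DMb1, a subunit of the peptide loader, fell by 1.84, and Ciita, the master regulator of these genes, fell by 1.63 with 8 libraries. Among other white cells, Trac, a T cell receptor constant gene, was 0.307 to 1.42 CPM against 2.63 to 6.20 CPM. Cd79b, part of the B cell receptor, was 0.944 to 2.24 CPM against 4.07 to 7.87 CPM. Both were called in both fits at these low levels. With all 10 libraries 2 of 11 T and NK cell markers and 1 of 8 B and plasma cell markers were lower, against 3.49% of all genes. With 8 libraries 2 of 7 and 4 of 7 were lower, against 10.9%, and none of either list was higher in either fit. Of 19 complement genes 2 were lower and 1 higher with all 10 libraries, against 3.49% and 1.32% of all genes. With 8 libraries 7 were lower and 1 higher, against 10.9% and 8.52%, so that the number higher was near that share. Among them C3ar1, the receptor for C3a, fell by 2.22 while C2 rose by 2.20 with 8 libraries. C2 was 112 to 180.0 CPM in Western-NaKtide 1 to 4, 37.8 CPM in Western-NaKtide 5 and at most 43.5 CPM in the control-NaKtide libraries.

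Lysosomal and matrix genes were called lower in smaller numbers. Over all genes, 3.49% were called lower and 1.32% higher with all 10 libraries, and 10.9% lower and 8.52% higher with 8. Of 27 lysosome genes 3 were lower with all 10 libraries and 11 with 8, none higher. Gusb, a glucuronidase, fell by 1.28 and Ctsl, a cathepsin, fell by 0.89 in the fit with all 10 libraries, and both kept their calls with 8. Lipa, which hydrolyses lipoprotein lipid in lysosomes, fell by 1.64 with 8 libraries. Of 31 collagens and matrix genes 3 were lower with all 10 libraries and 11 with 8, none higher (median log2 fold change -0.85 and -0.87). The collagen VI chains Col6a1 and Col6a2, which surround adipocytes, fell by 1.99 and 2.11 with 8 libraries. Col6a1 was 377, 86.5, 395, 132 and 82.9 CPM in Western-NaKtide 1 to 5 and 479, 932, 932, 1129 and 975 CPM in control-NaKtide 1 to 5, so that control-NaKtide 1 was nearest to the other group. Timp1, a metalloproteinase inhibitor, fell by 3.04 with 8 libraries, and Acta2, smooth muscle actin, fell by 1.61 with all 10. Of the 14 fibroblast progenitor markers none was called with all 10 libraries and 1 was higher with 8. Of 24 cell cycle genes 2 were lower with all 10 libraries and 12 with 8, none higher, among them Ccne1, cyclin E1, which fell by 1.79.

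**Figure D3:**
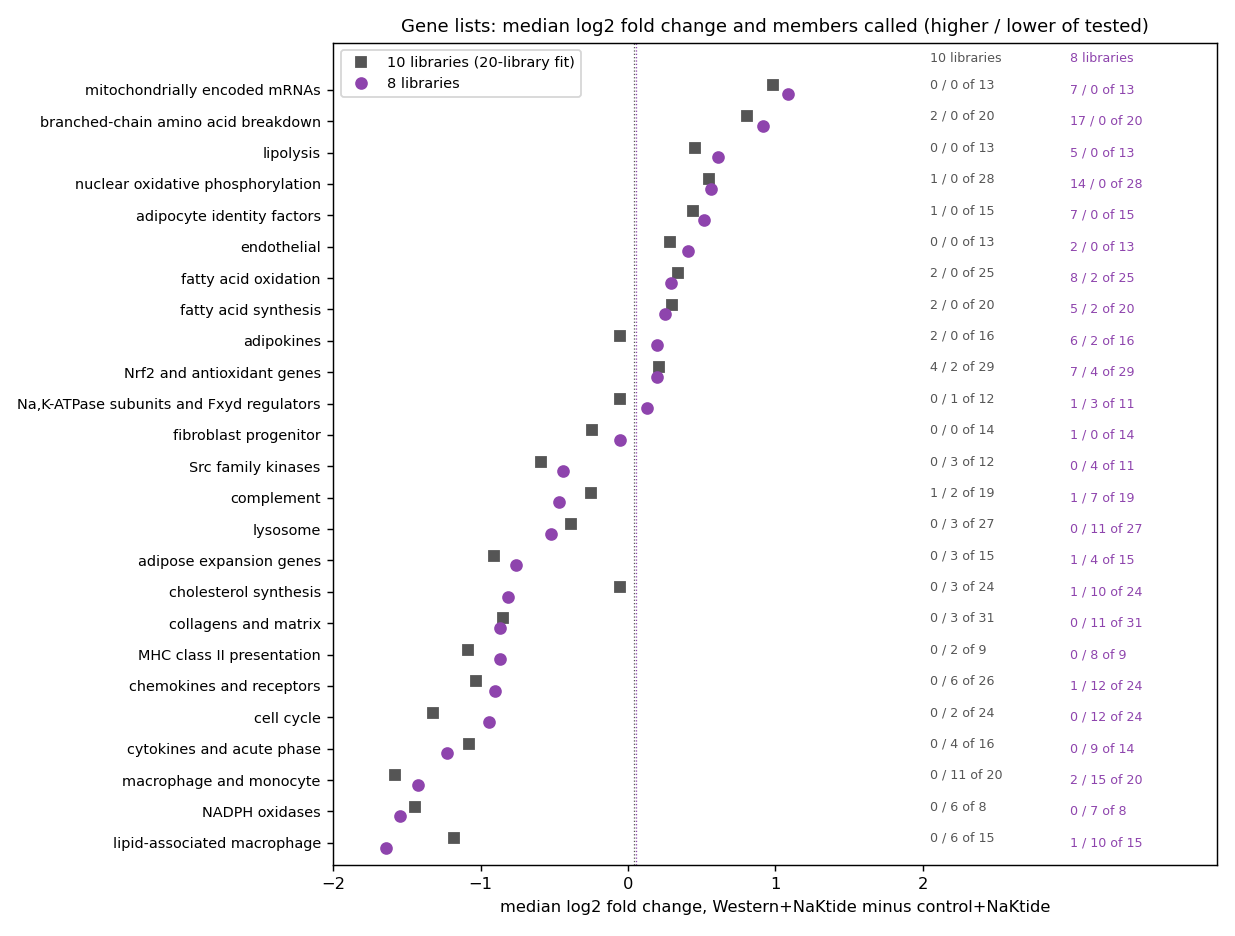
Median log2 fold change of 25 of the 49 gene lists, mostly pathways, Western-NaKtide minus control-NaKtide, with all 10 libraries (squares) and with 8 (circles), and at the right the members called higher and lower of those tested. The dotted lines mark the medians over all genes tested. Among the lists plotted, with 8 libraries, lipid-associated macrophage, NADPH oxidase and macrophage and monocyte genes lie lowest, and mitochondrially encoded and branched-chain amino acid genes highest.

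Lep, leptin, which rises with adipocyte size, was 525, 251, 2365, 872 and 414 CPM in Western-NaKtide 1 to 5 and 1889, 3966, 3969, 3859 and 4390.5 CPM in control-NaKtide 1 to 5. Western-NaKtide 3 lay above control-NaKtide 1, and the difference was not called with all 10 libraries (-2.05 ± 0.76, edgeR adjusted p = 0.15). Leaving out Western-NaKtide 3 brought that p to 0.045. With 8 libraries the level was 3.99 times lower (edgeR adjusted p = 0.032), and the call was lost without control-NaKtide 2, 3, 4 or 5 or Western-NaKtide 1 or 4 (highest adjusted p 0.076). Mest, a gene of expanding fat cells, was 16.6 to 142 CPM in the Western-NaKtide libraries and 195 to 573 CPM in the control-NaKtide libraries, and fell by 3.22 with 8 libraries (edgeR adjusted p = 0.0054).

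Adipoq, adiponectin, was 3513, 2882, 2530.3, 2638 and 917 CPM against 1058, 1975, 1992, 1343 and 1492 CPM. Western-NaKtide 5 was the lowest of the 10 libraries and the other 4 of its group the highest. With 8 libraries Adipoq rose by 0.78 (edgeR adjusted p = 0.025), a call lost without control-NaKtide 3, 4 or 5 or Western-NaKtide 1 (highest adjusted p 0.11). Cfd, adipsin, a complement protease secreted by adipocytes, was 7678, 7893, 5619.5, 11868 and 3786 CPM against 919, 1356, 1199, 1138 and 1027 CPM, without overlap (2.67 ± 0.53, edgeR adjusted p = 0.0071). Retn, resistin, rose by 1.42 and Agt, angiotensinogen, by 2.14 with 8 libraries. Of 16 adipokines 2 were higher and none lower with all 10 libraries, against 1.32% and 3.49% of all genes. With 8 libraries 6 were higher and 2 lower, against 8.52% and 10.9%, so that the number lower was near that share. Per length, Cfd stood at 5995 ± 2341 FPKM in the Western-NaKtide and 965 ± 112 FPKM in the control-NaKtide libraries (SD, n = 5).

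**Figure D4:**
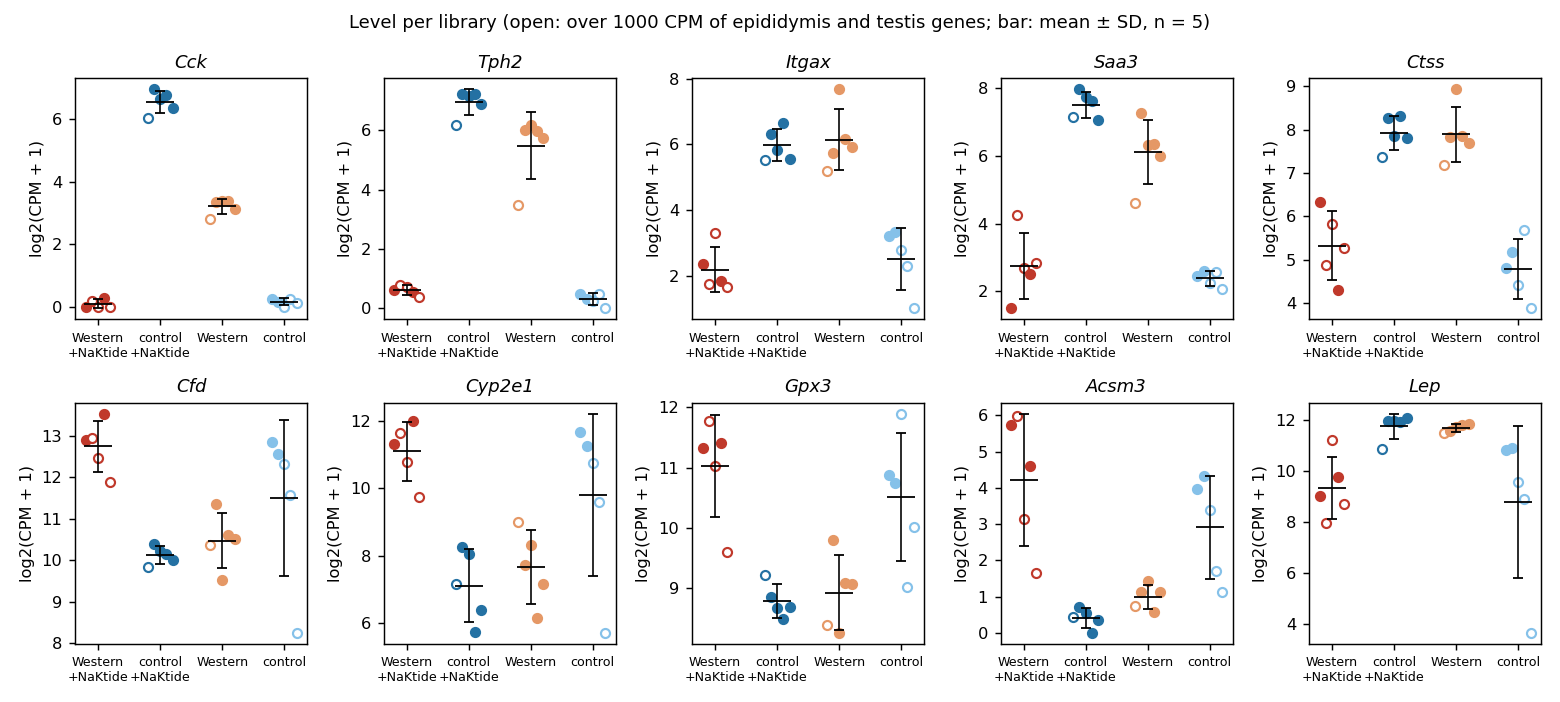
Level of 10 genes as log2(CPM + 1) in each visceral fat library, with the mean and SD of 5 libraries, and open circles for libraries with more than 1000 CPM of epididymis and testis genes. Cck, Tph2, Itgax, Saa3, Ctss and Lep are high in the control-NaKtide and Western libraries, and Cfd, Cyp2e1, Gpx3 and Acsm3 are high in the Western-NaKtide libraries and spread widely in the control libraries.

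Among the 15 largest rises by the naming rule were 4 enzymes of small molecules, Acsm3, Cyp2f2, Cyp2e1 and Ces1f. Cyp2e1, a cytochrome P450 that oxidises ethanol and ketones, was 2571, 3245, 1758, 4085 and 856 CPM in Western-NaKtide 1 to 5 and 141, 302, 265, 51.4 and 81.9 CPM in control-NaKtide 1 to 5 (3.85 ± 0.82, edgeR adjusted p = 0.01). It was the only liver marker of 10 that was called. The sum of the 10, Cyp2e1 included, was 1780 to 4360 CPM in the Western-NaKtide and 109 to 837 CPM in the control-NaKtide libraries. In Western-NaKtide 1 to 5 the sums were 2695, 3349, 1780, 4360 and 3435 CPM, so that Cyp2e1 made up most of the first 4. The median log2 fold change of the tested liver markers was 1.88 with all 10 libraries and -0.84 with 8. Acsm3, a medium-chain acyl-CoA synthetase, was 52.3, 62.3, 7.84, 23.1 and 2.15 CPM against at most 0.645 CPM (6.31 ± 1.00, edgeR adjusted p = 0.0015). Cyp2f2, another cytochrome P450, was 20.7 to 239 CPM against 1.86 to 4.77 CPM (5.15 ± 0.70), and Ces1f, a carboxylesterase, 56.5 to 501 CPM against 13.9 to 25.8 CPM (3.56 ± 0.70). The naming rule took only genes whose groups did not overlap. Western-NaKtide 3 and 5 were the lowest 2 of their group for each of these 4 genes.

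Mycl, a Myc family transcription factor, rose by 3.77. Net1, a RhoA exchange factor, rose by 3.33. Npas2, a clock transcription factor, rose by 2.91 with 8 libraries.

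Fasn, fatty acid synthase, was 1918, 1214, 2073, 4142 and 692 CPM against 1018, 1993, 2167, 2147 and 4108 CPM, overlapping and not called (-0.21 ± 0.48, edgeR adjusted p = 0.85). Acacb, the acetyl-CoA carboxylase that controls fatty acid oxidation, was 50.7 to 310.0 CPM against 13.6 to 29.3 CPM and rose by 2.93 with 8 libraries. Fads1, a fatty acid desaturase, rose by 1.23 with 8 libraries. Of 20 fatty acid synthesis genes, 2 were higher and none lower with all 10 libraries, against 1.32% and 3.49% of all genes. With 8 libraries 5 were higher and 2 lower, against 8.52% and 10.9%, so that the number lower was near that share. Pparg, the master factor of adipocytes, was not called with all 10 libraries (0.29 ± 0.62, edgeR adjusted p = 0.84) or with 8 (edgeR adjusted p = 0.25). It was called (0.72 ± 0.18, edgeR adjusted p = 0.021) in a fit of the 12 visceral libraries with at most 1000 CPM of epididymis and testis genes. Of the 2 groups compared, that fit holds only Western-NaKtide 1 and 4 and control-NaKtide 2 to 5.

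Of 24 cholesterol synthesis genes 3 were called lower with all 10 libraries and 10 with 8, where 1 was higher, against 3.49% and 10.9% of all genes called lower. Their median log2 fold change was -0.06 and -0.81. Lss, lanosterol synthase, was 14.9 to 35.4 CPM in Western-NaKtide 1 to 4 but 129.6 CPM in Western-NaKtide 5, and fell by 1.38 with 8 libraries (edgeR adjusted p = 0.014, against 0.82 with all 10). Dhcr7, a late enzyme of the pathway, fell by 2.04 with 8 libraries, and the regulator Insig1 fell by 1.87. Fdft1, squalene synthase, went the other way with 8 libraries (1.14 ± 0.19, edgeR adjusted p = 0.0036).

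Lipolysis and mitochondrial fuel genes were higher with 8 libraries. None of 13 lipolysis genes was called with all 10 libraries and 5 were higher with 8, none lower, against 8.52% of all genes called higher with 8. Adrb3, the beta-3 adrenergic receptor, was 733, 623, 491, 617 and 104 CPM in Western-NaKtide 1 to 5 and 69.0, 136, 139, 70.6 and 151 CPM in control-NaKtide 1 to 5. Western-NaKtide 5 alone lay within the range of the other group, and the log2 fold change with 8 libraries was 2.33 ± 0.24 (edgeR adjusted p = 0.00047, against 0.089 with all 10). Pnpla2, adipose triglyceride lipase, rose by 1.16 and Hcar1, the lactate receptor of fat cells, by 1.53 with 8 libraries. Pck1, which makes glycerol for triglyceride, rose by 2.76, and Plin5, a lipid droplet protein of oxidative tissue, by 1.41 with 8 libraries. Plin2, the droplet protein of small droplets and foam cells, fell by 1.06 with 8 libraries.

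Breakdown of branched-chain amino acids, a pathway that adipocytes run strongly and that is lower in obese fat, was higher with 8 libraries for 17 of 20 genes and lower for none. With all 10 libraries 2 were higher, and the median log2 fold change was 0.80 with all 10 and 0.91 with 8. Over all genes, 1.32% were called higher with all 10 libraries and 8.52% with 8. Ivd, which acts on the leucine branch, was 571, 414, 321, 484 and 107 CPM against 121, 199, 202, 161 and 172 CPM, and rose by 1.30 with 8 libraries (edgeR adjusted p = 0.0019, against 0.14 with all 10). Aldh6a1, of the valine branch, rose by 1.37, and Ppm1k, the phosphatase that activates the pathway, rose by 1.65, both with 8 libraries. Of 28 nuclear genes of oxidative phosphorylation, 14 were higher with 8 libraries and 1 with all 10, none lower in either. Among them Uqcrc2, a complex III subunit, rose by 0.86 with 8 libraries. Of the 13 mitochondrially encoded mRNAs, 7 were higher with 8 libraries and none with all 10, at medians of 1.09 and 0.98. The adipocyte marker sums above were higher in Western-NaKtide 1 to 4 than in every control-NaKtide library. The sum of 15 skeletal muscle markers was 963, 55.9, 33.0, 173 and 107 CPM in Western-NaKtide 1 to 5 and 27.6 to 58.6 CPM in the control-NaKtide libraries. Of these markers 1 of 11 was called higher with all 10 libraries and 1 of 4 with 8. In the fit of 12 libraries, which keeps only Western-NaKtide 1 and 4 of that group, 12 of 14 were called higher. Over all genes, 997 of 16494 were called higher in that fit. The part of both in these results was not tested.

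The antioxidant list was examined because of the pump's oxidant loop. Of 29 genes, 4 were higher and 2 lower with all 10 libraries, against 1.32% and 3.49% of all genes. With 8 libraries 7 were higher and 4 lower, against 8.52% and 10.9%, so that the number lower was near the share over all genes. Gpx3, the secreted glutathione peroxidase, was 2565, 3520.1, 2098, 2728 and 771 CPM in Western-NaKtide 1 to 5 and 598, 461, 407, 359.9 and 412 CPM in control-NaKtide 1 to 5 (2.32 ± 0.46, edgeR adjusted p = 0.0073). Gsta4, a glutathione transferase that clears lipid aldehydes, was 34.6 to 68.5 CPM against 3.54 to 20.8 CPM (2.35 ± 0.44). Neither gene's groups overlapped. With 8 libraries Sod1, cytosolic superoxide dismutase, rose by 0.97, while Hmox1, haem oxygenase 1, fell by 1.28 and Slc7a11, the cystine importer, fell by 1.82.

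The diet difference under NaKtide was tested against that without NaKtide in the fit of all 20 visceral libraries. It differed for 5549 of 17235 genes (32.2%), higher for 3241 (18.8%) and lower for 2308 (13.4%). The balance turned in other fits, with 2103 higher and 2637 lower over the 12 libraries with at most 1000 CPM of epididymis and testis genes, and 1927 higher and 2085 lower with the replicate number as a block. Cck (-15.97 ± 0.69, edgeR adjusted p = 1.1e-10) and Tph2 (-15.49 ± 0.78, edgeR adjusted p = 6.8e-10) were the 2 largest lower differences among genes of at least 5 CPM. Itgax (-7.91) and Saa3 (-8.89) were lower, and Cyp2e1 (6.52) and Cfd (4.16) higher, all 4 chosen after their values had been seen. For Lep the difference was -3.82 ± 1.07 (edgeR adjusted p = 0.014) and for Adipoq 0.60 ± 0.80 (edgeR adjusted p = 0.6). The largest higher differences were in the epididymis genes Defb48, Defb47, Adam28 and Lcn9, and control 3, 4 and 5, without NaKtide, held 28972, 63050 and 28721 CPM of epididymis and testis genes. The fit of 12 libraries leaves out these 3, and holds only control 1 and 2 and Western-NaKtide 1 and 4 of their groups. Over the same 12 libraries, 2923 genes (17.7%) were called for diet without NaKtide, and 251 of them (8.59%) had the same sign under NaKtide. Of 1390 genes called in both contrasts there, 16 had the same sign.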

How the data were processed

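RNA was measured by paired-end sequencing of stranded mRNA libraries, with 5 libraries per group, each taken as 1 mouse. Per the submitters' processing notes, Trimmomatic 0.38, HISAT2 2.1.0, DESeq2 1.20.0 and the GRCm38 build were used, and the counter was not given in the sources used here. The authors deposited raw counts per gene ID, used for every test, and FPKM values, used in no test and only to give levels per length. Symbols from the reference table matched 54079 of 54232 IDs, and genes with close copies, such as H2-DMb1, Ces1f and Saa3, are uncertain.

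Genes were filtered with filterByExpr by group, scaled by TMM and tested with edgeR 4.0.16 (R 4.3.3, quasi-likelihood F test, Benjamini-Hochberg adjustment over all genes tested, threshold 0.05). SE is the log2 fold change divided by the root of F. CPM were TMM-scaled over the 20 visceral libraries. Fits were of the 20 visceral libraries with 4 groups, of 8 libraries in 2 groups, and of the interaction. The tests were checked on simulated data, where the fit of 8 libraries recovered the most, the fit of all 10 missed most of the smaller changes and the interaction missed most of the larger ones as well, and all calls on changed genes had the right sign. The members, the 49 gene lists and the tests were chosen with earlier results of these data known. Genes were named by size (the 15 largest changes each way of at least 5 CPM, without overlap or predicted genes), by smallest p within each list (up to 3 each way), and by name (12 genes of interest such as Lep, Adipoq and Src), of which a selection is printed, and some named genes are not reported here. Further members of the lists and C2 were named after their values had been seen. Counting intervals are 95% exact and cover counting error only. Alternatives were RLE scaling, no filter, DESeq2 1.42.0, limma 3.58.1 voom with quality weights, the replicate number as a block, robust dispersion, other sets of libraries and each library left out.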

Additional observations from a re-analysis of the deposited data

Results flagged for a closer look

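Within groups of 5 libraries, 13 of 206 tests of a printed gene's log2(CPM + 1) had 1 library apart from the other 4, where chance gives about 1 in 20. All 13 were low values in the libraries with the most epididymis and testis RNA, 8 in control-NaKtide 1 and 5 in Western-NaKtide 5. The gap divided by the range of the group was, for control-NaKtide 1, 0.814 in Fgr, 0.833 in Csk, 0.777 in Col6a1, 0.775 in Col6a2, 0.832 in Mest, 0.847 in Lep, 0.804 in Aldh6a1 and 0.760 in Lyn. For Western-NaKtide 5 it was 0.795 in Cyba, 0.740 in Socs3, 0.756 in Adipoq, 0.751 in Nnat and 0.793 in Adrb3.

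The diet difference under NaKtide differed from that without NaKtide for 5549 genes in the interaction test. Among the genes printed for it, the difference of the 2 log2 fold changes was -15.97 in Cck, -15.49 in Tph2, -3.82 in Lep, -7.91 in Itgax, -8.89 in Saa3, 6.52 in Cyp2e1 and 4.16 in Cfd.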

How the results depend on the processing

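With all 10 libraries, 361 genes were called without the filter on low counts, 1663 by DESeq2 and 3299 by voom with quality weights, and 389 to 854 when 1 library was left out. With 8 libraries, 1824 to 3422 genes were called when 1 more was left out, and for the interaction 3860 to 6454. RLE scaling, robust dispersion, the fit of 2 groups alone and the 18-library and 12-library fits kept the counts within 1.5 times. Among the genes called with 8 libraries but not in the 12-library fit were Spp1, Lipa and Cd163 (edgeR adjusted p = 0.14, 0.083 and 0.079). Lep was called in the 12-library fit (edgeR adjusted p = 6.0e-05). The replicate block gave 599, 1215 and 4012 genes in the 3 fits. Same-numbered libraries deviated together with correlations of -0.66 to 0.32, no library went best with its own number, and the labels give the numbers no meaning, so the libraries were not taken as pairs. The cause of these shifts was not tested.

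Among the printed genes the sign turned only in Fasn, which was not called. Fasn ranged from -0.659 to 0.0631 with 1 of the 10 left out and from -0.589 to 0.129 with 1 of the 8, and with 8 libraries went to 0.0647 under the replicate block and 0.223 in the 12-library fit. For the printed genes, 193 fits with all 10 libraries and 1 left out and 48 other fits lost a call that the fit of all 10 had made. In the same fits 8 and 52 gained a call. With 8 libraries, 15 fits with 1 left out and 21 others lost a call, and 1 other fit gained a call. With 5 libraries a group, and fewer in the fits of 8 and 12 libraries, p-values measure the spread between these libraries. Genes of few counts were not tested.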
